A study of Mus musculus with 35 samples.

Results

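Transcripts of 10 genes of the transforming growth factor beta (TGF-beta) and bone morphogenetic protein (BMP) pathways were followed in mouse marrow cells. The genes were Twsg1, Bmp1, Tgfb1, Tgfbr1, Tgfbr2, Smad1, Smad2, Smad3, Smad4 and Smad7. They were listed by name and not by a cut-off on a measured value, but with earlier results of these data known. A probe set was taken when the annotation of the array gave it 1 of these genes alone, which left 12 of 12422 probe sets and all 10 genes of 8251. Smad1 and Bmp1 had 2 probe sets each, and these were kept apart.

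All cells came from bone marrow of C57Bl/6 mice, which the methods give as CD45.1 animals aged 7 to 9 weeks. The labels state male for every group except USP, where they give no sex. Side population (SP) cells were sorted for Hoechst dye efflux, Sca-1 on the surface and no Gr-1. LSP cells came from the lower part of the SP tail and USP cells from its upper part, while CD8 T cells were sorted for CD3 and CD8. Each of 3 LSP samples (A, B and M), 3 USP samples (N, O and Z) and 3 CD8 samples (B, C and D) was a pool of 4 amplifications of 10 cells, read on 2 arrays. A second experiment held 12 single SP cells (A to L) from the tip of the SP tail and 5 single-cell-equivalents (SCE, A to E), which were aliquots of 1 lysate of 40 SP cells. For single-cell and ten-cell experiments the methods took marrow from 1 mouse, and do not say whether samples shared a mouse. The labels name no mouse or culture for a sample. The p-values therefore measure only the spread between these samples, which may be technical and may not span animals.

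TGF-beta and BMP ligands bind pairs of serine/threonine kinase receptors, which phosphorylate receptor-regulated Smad proteins. These join Smad4 and move to the nucleus, where the complex regulates transcription. Smad2 and Smad3 act mainly after TGF-beta and activin receptors and Smad1 after BMP receptors, while Smad7 inhibits the receptors. TGF-beta is best known in blood stem cells as a signal that holds back their cycling.

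Levels are log2 array intensities. Ten-cell levels under 7, an intensity of 128, were set to 7, called the floor here, and the 2 arrays of a sample were then averaged. A single cell or SCE was counted as detecting a gene at a log2 level of at least 9, an intensity of 512. Of the 12 probe sets, 7 (5 genes) were above the floor on at least 1 of 18 ten-cell arrays, and 5 (4 genes) were detected in at least 1 single cell. Over all probe sets these shares were 54.9% and 33.9%. In these small pools, fewer cells with a transcript and less transcript per cell cannot be told apart.

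All 9 stem cell probe sets were at the floor in the CD8 samples and none in all LSP or all USP samples, and of 11 CD8 T cell probe sets 11 were at the floor in USP, 9 in LSP and 2 in CD8. Markers of granulocytes and monocytes were also found: their summed log2 level over 11 probe sets was 84.8 to 88.4 in LSP, 90.8 to 93.7 in USP and 77.0 to 80.0 in CD8, and 6, 5 and 8 of the 11 were at the floor throughout. The summed level of the CD8 T cell probe sets was 77.0 to 78.9 in LSP, 77.0 in USP and 111.4 to 113.1 in CD8. Cd3g, Cd8a and Cd8b1 were at the floor in LSP and USP, while in LSP Cd3e averaged 7.53 and 1 Zap70 probe set 7.11. The summed level of 22 B cell probe sets was 154.0 to 156.1 in LSP, 156.6 to 160.2 in USP and 161.7 to 166.9 in CD8, with 20, 17 and 18 at the floor throughout. Ighm, the mu heavy chain, averaged 11.23 in CD8 and 8.29 in USP by 1 probe set, 10.28 and 7.13 by another, and was at the floor in LSP by both. All its other probe sets were at the floor in LSP and CD8 and averaged at most 7.02 in USP. For 4 erythroid probe sets the sum was 28.2 to 29.7 in LSP, 31.7 to 32.3 in USP and 28.0 to 33.2 in CD8, with 2, 3 and 2 at the floor throughout, and the alpha globin Hba-a1 averaged 10.98 in USP against 7.91 in LSP. For 6 megakaryocyte and platelet probe sets the sum was 42.0 to 42.4, 43.3 to 44.9 and 42.0 to 42.1 in the same order, with 4, 3 and 5 at the floor throughout. The part of these markers in the differences below was not tested. Of the deposited arrays, 5 of 6 for LSP and 4 of 6 for USP held negative values, while all arrays of CD8 cells, single cells and SCE were positive throughout. Value type and cell population are therefore partly tied.

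The ligand, both TGF-beta receptors, Smad3 and Smad7 stayed at the floor on all 18 ten-cell arrays. The highest ten-cell intensity of Tgfb1, the ligand TGF-beta 1, was 68.7. It was 57.7 for Tgfbr1, the type I receptor, and 77.8 for Tgfbr2, the type II receptor. For Smad3 it was 70.5, and for the inhibitory Smad7 33.5. None of the 5 was tested between populations, and a level under the floor bounds the signal of these probe sets without showing that the transcript was absent.

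Single cells gave the same 5 genes no detection. Tgfb1 was between 3.35 and 5.35 in 11 of 12 cells and 8.25 (intensity 304.4) in cell G, and no SCE was above 4.89. Tgfbr1 had a highest level of 6.56 among cells and Tgfbr2 of 7.10, Smad3 of 6.86 and Smad7 of 5.26. A count of 0 of 12 cells allows a share of up to 26.5% (exact 95% binomial interval), which covers counting error only.

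**Figure D1:**
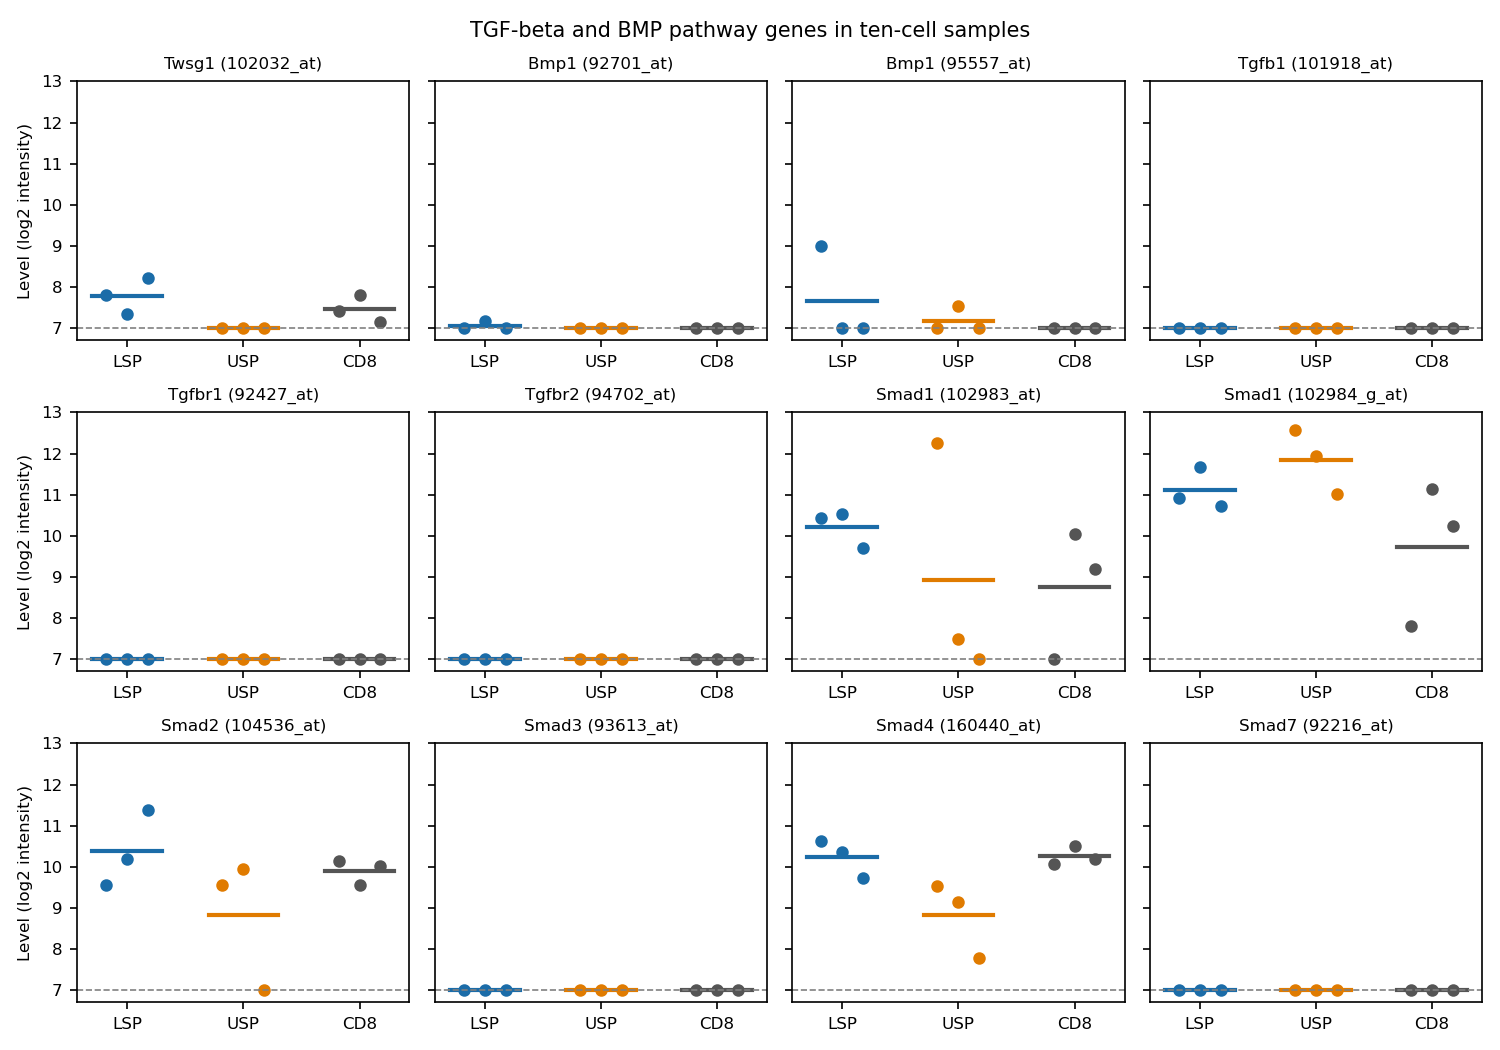
Log2 level of each probe set in the ten-cell samples, 1 point per sample (mean of 2 arrays), with a bar at the population mean (n = 3) and a dashed line at the floor of 7. Twsg1 was at the floor in all USP samples, Smad4 was lower in each USP sample than in any LSP sample, and Tgfb1, Tgfbr1, Tgfbr2, Smad3 and Smad7 were at the floor in all 9 samples.

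Among the receptor-regulated Smads, Smad1, which transmits BMP signals, had probe sets that did not give the same picture. By probe set 102984_g_at its log2 level was 10.92, 11.68 and 10.72 in LSP samples A, B and M. It was 12.56, 11.95 and 11.01 in USP samples N, O and Z, and 7.80, 11.13 and 10.24 in CD8 samples B, C and D. Every SP sample but LSP A, LSP M and USP Z was above all CD8 samples, and CD8 sample B was the lowest of the 9.

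The SP samples averaged 11.47 ± 0.71 (SD, n = 6) by 102984_g_at, compared with 9.72 ± 1.73 (SD, n = 3) for the CD8 samples. SP, taken as the mean of LSP and USP, exceeded CD8 by 1.75 (SE 0.75) on the log2 scale, or 3.36-fold, which did not pass the test (limma, p = 0.0518, adjusted p = 0.276). Without CD8 sample B the difference was 0.79 (limma, adjusted p = 0.572). LSP and USP differed by -0.73 (SE 0.86, adjusted p = 0.913 by limma), and their samples overlapped.

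By probe set 102983_at, Smad1 was at 10.43, 10.53 and 9.71 in LSP samples A, B and M. It was at 12.25 in USP sample N, 7.50 in O and at the floor in Z. In CD8 it was at the floor in sample B, 10.04 in C and 9.19 in D. USP samples O and Z were thus near or at the floor by this probe set and well above it by the other, where O was the second highest of the 9 and Z the fifth, while CD8 sample B was the lowest, or level with the lowest, by both.

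With that spread, neither comparison passed for 102983_at. SP minus CD8 was 0.83 (SE 1.26, adjusted p = 0.758 by limma), and it was -0.01 without USP sample N and -0.05 without CD8 sample B. LSP minus USP was 1.31 (SE 1.46, adjusted p = 0.904 by limma), opposite in sign to the value from 102984_g_at. Duplicate arrays of a sample differed by at most 0.35 for 102983_at and 0.55 for 102984_g_at, so the split in USP was present on both arrays of each pool.

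**Figure D2:**
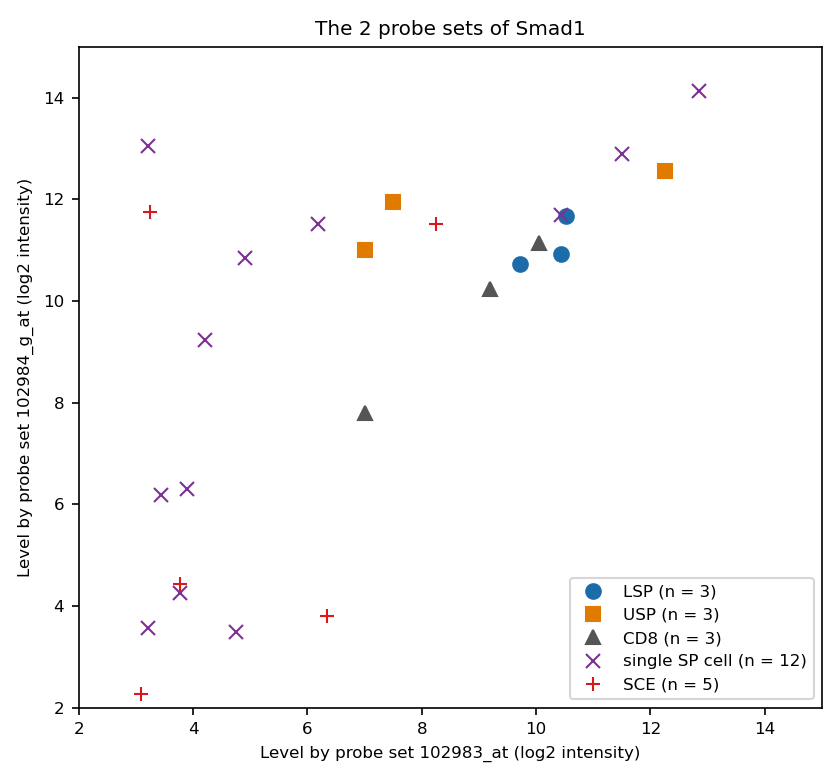
Log2 level of Smad1 by probe set 102983_at (horizontal) and 102984_g_at (vertical) in the 9 ten-cell samples, 12 single SP cells and 5 SCE, 1 point each. Single cells H, J and L were high by both, while single cells B, C, D and K and USP samples O and Z were high on the vertical axis alone. So were SCE C (horizontal 3.25, vertical 11.75) and SCE D (horizontal 8.25, vertical 11.51).

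Smad2, which transmits TGF-beta and activin signals, was above the floor in 8 of 9 ten-cell samples. Its log2 level was 9.57, 10.19 and 11.38 in LSP samples A, B and M, 9.56 and 9.95 in USP samples N and O, and at the floor in USP sample Z. In CD8 samples B, C and D it was 10.13, 9.55 and 10.03. Apart from USP sample Z the populations overlapped.

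LSP exceeded USP by 1.54 (SE 0.82) for Smad2, with an adjusted p of 0.876 (limma), and by 0.62 without USP sample Z. SP minus CD8 was -0.30 (SE 0.71, adjusted p = 0.851 by limma) and 0.16 without that sample.

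Smad4, the common partner of the other Smads, was above the floor in all 9 ten-cell samples. Its log2 level was 10.64, 10.35 and 9.72 in LSP samples A, B and M and 9.54, 9.14 and 7.79 in USP samples N, O and Z. In CD8 samples B, C and D it was 10.08, 10.50 and 10.20. Each LSP sample was above each USP sample, the closest being LSP M and USP N, and the CD8 samples lay within the LSP range.

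The LSP samples averaged 10.24 ± 0.47 (SD, n = 3) for Smad4, compared with 8.82 ± 0.92 (SD, n = 3) for the USP samples. The difference of 1.41 (SE 0.47), or 2.66-fold, did not pass the test over 6823 probe sets (limma, p = 0.0195, adjusted p = 0.707). Without USP sample Z it was 0.90 (limma, adjusted p = 0.616). With arrays of positive values alone, LSP minus USP was 2.69 for Smad4 and 3.55 for Smad2. That setting left 1 LSP and 1 USP sample, the latter Z, and took the spread from CD8. In the main fit SP minus CD8 was -0.73 for Smad4 (SE 0.40, adjusted p = 0.429 by limma).

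Of the extracellular regulators, Twsg1 (twisted gastrulation), a secreted protein that binds BMPs and modulates their signalling together with chordin, was near the floor in all populations. It was at 7.80, 7.35 and 8.21 in LSP samples A, B and M, at the floor on all 6 USP arrays, and at 7.42, 7.80 and 7.14 in CD8 samples B, C and D. LSP was above USP in all 3 samples and overlapped with CD8. The highest USP intensity was 68.2 and the LSP intensities ran from 94.2 to 451.2, with 5 of 6 arrays over the floor.

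LSP minus USP was 0.79 (SE 0.25, 95% interval 0.19 to 1.38) for Twsg1. It did not pass the test over all probe sets (limma, p = 0.0168, adjusted p = 0.667). Because the USP samples were all at the floor, and so without spread, the size, its SE and the p-value follow the floor. The size was 1.70 with a floor of 6 and 0.14 with a floor of 8. SP minus CD8 was -0.06 (SE 0.22, adjusted p = 0.902 by limma).

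Bmp1, the protease that cleaves procollagens and the BMP antagonist chordin, was at or near the floor in every ten-cell sample except LSP A. By 95557_at that sample stood well above the floor, with intensities of 513.0 and 509.1 on its arrays, and USP sample O was at 7.54, with the other LSP and USP samples at or just over the floor and all CD8 samples at it. By 92701_at 1 sample was over the floor, LSP B at 7.17. The largest difference, LSP minus USP by 95557_at, was 0.49 (SE 0.53, adjusted p = 0.898 by limma) and -0.18 without LSP sample A.

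Counted together, 0 of 7 tested probe sets passed an adjusted p of 0.05 in SP against CD8, where 5.83% of all probe sets did. At an unadjusted p under 0.05 the count was also 0 of 7 (18.5% of all), and 0 of 7 had groups that did not overlap (11.3% of all). The median difference over the 7 was 0.03, against 0.04 over all tested probe sets. In LSP against USP 0 of 7 passed (0.103% of all), 2 had an unadjusted p under 0.05 (5.99% of all), and the same 2, Twsg1 and Smad4, did not overlap (5.98% of all). Both were higher in LSP, as were 3.18% of all at that p and 3.09% of all without overlap. The paper had already named twisted gastrulation among transcripts predominant in LSP on these arrays. Because the genes were chosen with earlier results of these data known, the counts that include Twsg1 are not independent of that choice. LSP was higher for 6 of 7, with a median of 0.79 against 0.00 over all. The share of all probe sets higher in LSP was not counted. Among the 6, Bmp1 by 92701_at (0.06) rested on 1 array over the floor. Also, 4 of the 7 values come from Smad1 and Bmp1, with 2 probe sets each, and all share the same 6 samples.

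**Figure D3:**
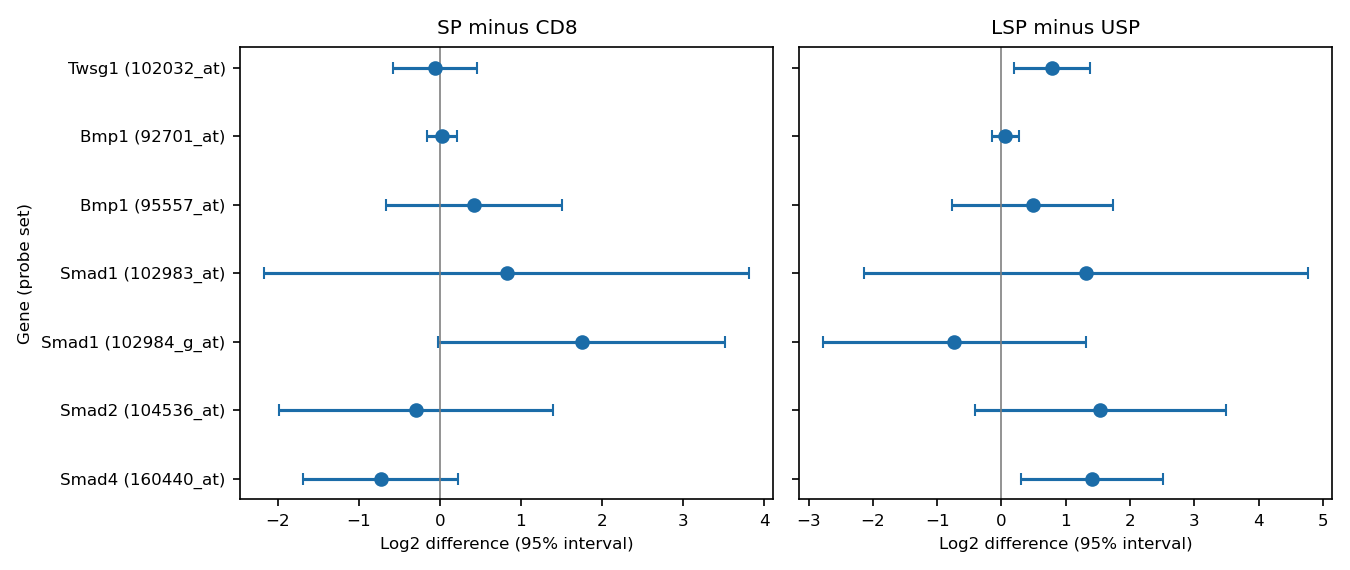
Log2 differences SP minus CD8 (left) and LSP minus USP (right) for the 7 tested probe sets, with 95% intervals from limma, unadjusted for the number of probe sets. All intervals on the left include 0; on the right those of Twsg1 and Smad4 lie above 0, and neither passed after adjustment.

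In single SP cells, Smad1, Smad4, Twsg1 and Bmp1 were detected, each in some cells only. Smad1 by 102984_g_at was detected in 7 of 12 cells (58.3%, exact 95% interval 27.7% to 84.8%). In those 7 (B, C, D, H, J, K and L) its log2 level ran from 9.24 in cell D to 14.13 in cell L, and in the other 5 it was at most 6.30. By 102983_at only cells H (11.50), J (10.44) and L (12.85) detected it, and cell C, at 13.04 by the first probe set, was at 3.22 by this one.

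The SCE were as divided for Smad1. By 102984_g_at SCE C and D were at 11.75 and 11.51 and the other 3 at 4.43 or lower, although all 5 came from 1 lysate. The biological proportion, the estimated share of the variance between cells beyond that between SCE, was 0 for 102984_g_at and 0.620 for 102983_at, which no SCE detected.

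Smad4 was detected in 5 of 12 cells (41.7%, exact 95% interval 15.2% to 72.3%), at 12.70 in cell D, 12.20 in I, 10.38 in J, 10.36 in C and 10.25 in L. Cell K was just under the detection level at 8.99, and cell E was lowest at 3.62. SCE ran from 4.07 to 9.49, with SCE A alone detected, so the cells reached higher than the SCE while their low ends were alike. The biological proportion was 0.472.

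Twsg1 was detected in 3 of 12 cells, at 10.44 in C, 10.18 in G and 9.33 in L, and the cells ranged down to 4.32. SCE levels were 9.21, 8.74, 6.50, 8.25 and 8.14 for A to E, closer together than the cells. Its mean absolute deviation from the median was 2.93 times that of the SCE. This was the only one of 5 tested probe sets with an unadjusted p under 0.05 for wider spread in cells (exact 1-sided permutation test over 6188 splits, p = 0.0197, adjusted p = 0.486), where 9.68% of all tested probe sets had one. None passed after adjustment, among these 5 or among all 4215 (0.0%).

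Bmp1 by 95557_at was detected in cell K (10.99) and SCE B (9.29) and was at most 7.75 in the other cells. By 92701_at no cell and no SCE detected it. For Bmp1 the paper found single-cell PCR seemingly less sensitive than its arrays. It proposes non-specific cross-hybridization on the arrays as a possible reason, which was not tested here. Smad2 was detected in no cell, with a highest level of 7.65 in cell D, and in SCE E at 10.25. A proportion of at least 0.5 was estimated for 2 of the 5 probe sets, against 41.6% of all tested. No difference in mean level between cells and SCE passed for the 5 by limma (0 of 5 adjusted, 0.0474% of all, and 0 of 5 at an unadjusted p under 0.05, 4.79% of all). The intervals were wide: -2.01 to 6.36 for Smad1 by 102984_g_at and -1.80 to 3.76 for Smad4.

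Counted by cell, cells C and L detected 3 of the 10 genes each, D, J and K 2 each, B, G, H and I 1 each, and A, E and F none. Cells C and L were the only ones with Smad1, Smad4 and Twsg1 together, Smad1 being counted by either probe set. With Smad1 by 102983_at, cell L alone had the 3. The detections of C and L over all probe sets, 1283 and 1245, lay within the 1194 to 1489 of the 12 cells. So did the 1398, 1320 and 1199 of A, E and F.

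**Figure D4:**
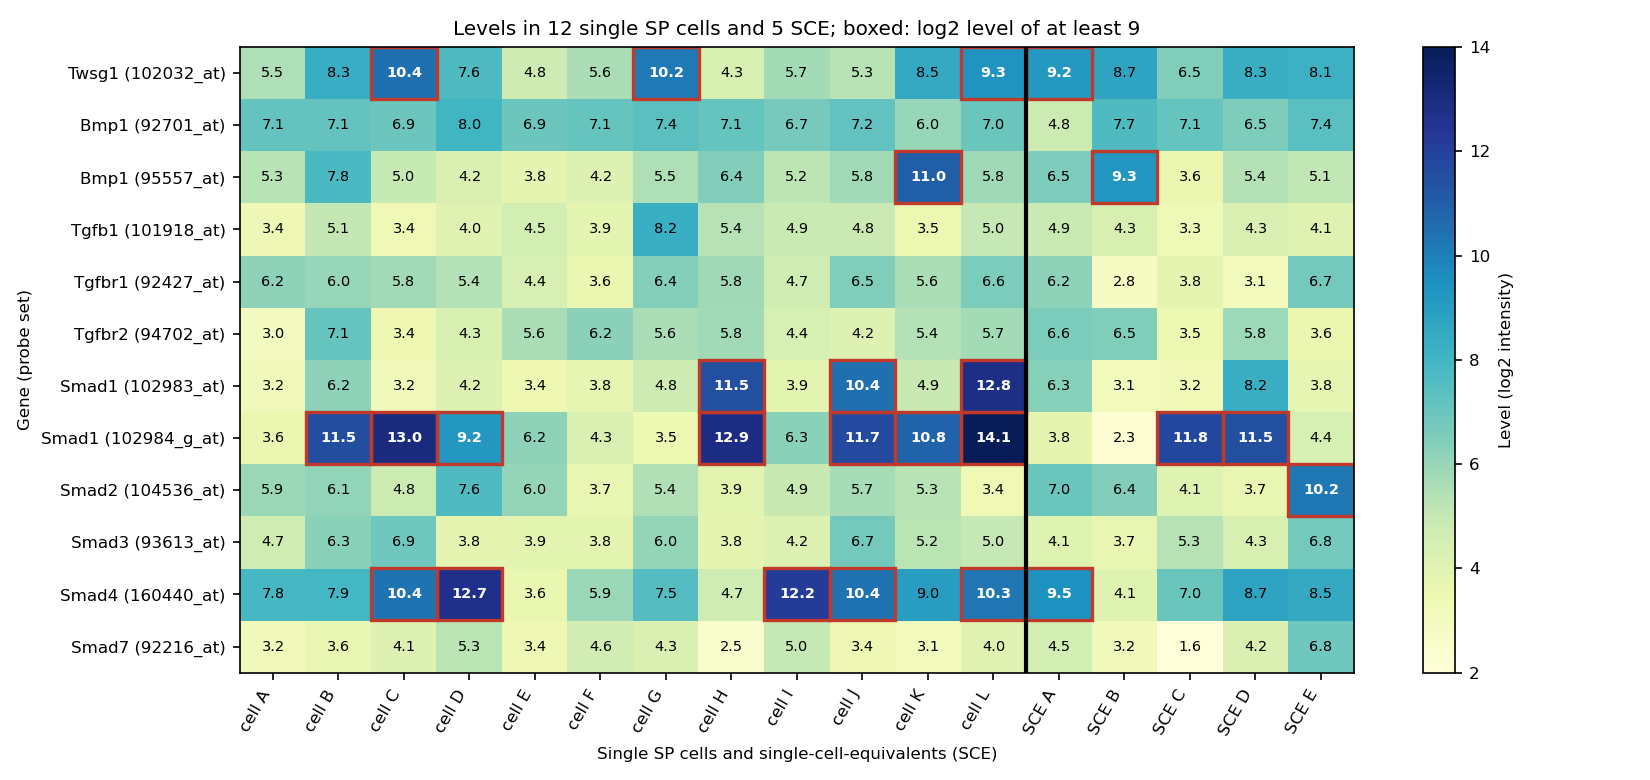
Log2 level of each probe set (rows) in 12 single SP cells and 5 SCE (columns), with the value printed and detected levels (at least 9) boxed. Smad1 by 102984_g_at was boxed in 7 cells, Smad4 in 5, Twsg1 and Smad1 by 102983_at in 3 each and Bmp1 by 95557_at in 1, while Tgfb1, Tgfbr1, Tgfbr2, Smad3 and Smad7 had no box in any cell or SCE.

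A wider list of other ligands, receptors, regulators, Smad partners and targets held 92 genes on the array (120 probe sets), of which 50 probe sets were tested. In SP against CD8, 0 of 50 were called higher in SP (2.83% of all) and 1 higher in CD8 (3.0% of all), with 9 of 50 at an unadjusted p under 0.05 (18.5% of all). In LSP against USP 0 of 50 were called (0.103% of all) and 7 of 50 had an unadjusted p under 0.05 (5.99% of all). The median differences were 0.16 and 0.33, against 0.04 and 0.00 over all tested probe sets. By role, 2 of 31 ligand probe sets were tested, 9 of 17 for receptors and co-receptors, 13 of 20 for intracellular regulators and 12 of 22 for targets.

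The 1 call was Nedd4l, a ubiquitin ligase that acts on Smad2 and Smad3 and on several channels. By 103906_f_at it was at 8.33, 8.28 and 8.06 in CD8 samples B, C and D and at the floor in every SP sample except USP O (7.20). SP was lower by 1.19 on the log2 scale (log2 difference -1.19, SE 0.10, adjusted p = 0.000559 by limma), and no sample overlapped. With 5 of 6 SP samples at the floor, and so without spread among them, the size, its SE and the p-value follow the floor. The size was -1.98 with a floor of 6 (limma adjusted p = 0.00789). The call was lost with a floor of 8 (-0.26, limma adjusted p = 0.161), with all arrays fitted and the sample as a random block (limma adjusted p = 0.147) and with the replicate block (limma adjusted p = 0.142). Its other probe set, 103907_at, gave -0.43 (SE 0.17, adjusted p = 0.222 by limma).

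Of the others with the largest differences for their role, Itgav, an integrin subunit that helps to activate latent TGF-beta, had an SP minus CD8 difference of 2.56 (SE 0.88, adjusted p = 0.173 by limma) by 104386_f_at and 2.24 (SE 0.52, adjusted p = 0.0558 by limma) by 104385_i_at. A further Itgav probe set, 98366_at, gave 0.34 (SE 0.46, adjusted p = 0.736 by limma), and none of the 3 passed. Hgs, an endosomal adaptor, differed by -2.20 (SE 0.82, adjusted p = 0.207 by limma). Tsc22d1, a TGF-beta target, differed by 2.10 (SE 0.68, adjusted p = 0.148 by limma). The rest, Gdf3, Bmp4, Smad6, Bgn, Furin, Stub1, Crebbp, Tgif2 and Klf10, had adjusted p-values from 0.246 to 0.736 (limma).

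Of the member probe sets, the population means ranged most for Smad1 by 102984_g_at, over 2.12. The probe sets of other genes whose levels ran most like it over the 9 samples, among 4440 above the floor in at least 3, were those of Ndufv1 (Pearson r = 0.954), H2aj (0.953) and Ubxn8 (0.947). CD8 sample B was the lowest of the 9 for all 3, and the 9 points share the pools and populations. These values were chosen as the highest and carry no test.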

How the data were processed

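The authors deposited linear signal intensities for 35 MG-U74Av2 arrays, each scaled to a trimmed mean near 250. These are not the log2 RMA levels their methods describe, and the step that made them is not given in the sources used here. After 66 control probe sets were left out, 12422 remained, 10833 with 1 gene in the array annotation. The members and gene lists were chosen with earlier results of these data known, and the floor and detection level follow an earlier comparison with detection calls of the study. Log2 ten-cell levels, floored at 7, were fitted in limma 3.58.1 (R 4.3.3) with 1 mean per population over the 6823 probe sets with any ten-cell array over it. Single-cell and SCE log2 levels had no floor, and the 4215 probe sets detected in at least 1 cell were tested by limma and, for spread around the group median, by an exact permutation test. Biological proportions were fitted by maximum likelihood with 1 mean. Adjusted p-values are Benjamini-Hochberg values over all tested probe sets. Both steps were tested on simulated data. Python 3.11.15, numpy 2.4.6, pandas 2.3.3, scipy 1.17.1 and matplotlib 3.10.9 were used.

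Genes named are all members, each probe set of the wider list that was called, the 2 per role with the largest SP minus CD8 difference, and the 3 most like the member probe set with the widest range of means. Alternatives were other floors, filters and detection levels, quantile normalization, all arrays with the sample as a random block, a replicate block, positive arrays alone, the methods' t-test, LSP and USP fitted alone, other estimators of the proportion and leaving out each sample. Array number limits the precision.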

Additional observations from a re-analysis of the deposited data

How the results depend on the processing

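No tested probe set of the 10 genes was called in SP against CD8 under any of 18 alternatives. None was called in single cells against SCE under any of those run. The main fits tested 7 probe sets (5 genes) in ten-cell samples and 5 (4 genes) in single cells against SCE. Tgfb1, Tgfbr1, Tgfbr2, Smad3 and Smad7 were in neither, so their lack of a call there was fixed beforehand. In LSP against USP 2 probe sets were called under 1 of 19 alternatives, positive arrays alone, Smad2 (3.55, limma adjusted p = 0.0346) and Smad4 (2.69, limma adjusted p = 0.0300). That setting left 1 LSP and 1 USP sample, assumed to vary like the CD8 samples, and Twsg1 was then 0.00. It also called 1606 probe sets in SP against CD8 (1190 higher in SP and 416 in CD8) and 1196 in LSP against USP, against 398 and 7. The direction turned for Twsg1 in SP against CD8 with a floor of 8 (0.068), without LSP sample B (0.05) and without CD8 sample C (0.11), for Smad1 by 102983_at without USP sample N (-0.01) and CD8 sample B (-0.046), and for Smad2 without USP sample Z (0.16). In LSP against USP it turned for Smad1 by 102984_g_at with positive arrays alone (0.76) and for Bmp1 by 95557_at without LSP sample A (-0.18), and in single cells against SCE for Bmp1 without cell E (0.04), cell F (0.00) or SCE B (0.68). Without 1 sample or array, SP minus CD8 ran from -0.22 to 0.11 for Twsg1, -0.046 to 1.48 for Smad1 by 102983_at and -0.58 to 0.16 for Smad2, and for Bmp1 by 95557_at LSP minus USP ran from -0.18 to 0.82 and single cells minus SCE from -0.75 to 0.68. None of these passed the test, and the cause was not tested.

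Over all probe sets, SP against CD8 gave 214 calls with no filter, 661 with the sample as a random block and 254 to 417 when 1 sample was left out. LSP against USP gave 1 with the filter of at least 3 samples, 31 with the random block, 0 by the methods' t-test, 0 with LSP and USP fitted alone and 0 to 31 without 1 sample. Single cells against SCE gave 2 calls, 4 with a floor of 7 and 1 to 3 without 1 array, and the spread test gave 0, and 1 after quantile normalization. The replicate numbers mark the 2 arrays of a sample and do not pair samples: deviations of same-numbered arrays correlated at -0.18 to 0.25 over 36 pairs, 5 over 0.1. With them as a replicate block, SP against CD8 gave 639 calls and LSP against USP 27, none of them a TGF-beta or BMP gene among the 10. The biological proportion ran from 0.650 to 0.968 for Twsg1, 0.244 to 0.889 for Smad4, 0.455 to 0.947 for Smad1 by 102983_at, 0 to 0.233 by 102984_g_at and 0 to 0.654 for Bmp1.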
